A study of Rattus norvegicus with 10 samples.

Results

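The expression of 10 genes of GABAergic interneurons was examined in messenger RNA sequencing of the rat hippocampus after epileptogenic stimulation of the amygdala. The genes were Gad1, Gad2, Slc32a1, Pvalb, Calb1, Calb2, Reln, Lhx6, Erbb4 and Nos1. They were chosen by name and matched to the rows of the count matrix by RefSeq transcript identifier. Each of the 10 symbols had a single row, so 10 of the 32041 features of the matrix are described here. The 10 libraries came from 10 male Sprague-Dawley rats, an outbred strain. Both groups had electrodes implanted in the left lateral amygdala. The 5 sham operated rats (rats 1 to 5) were never stimulated. The 5 rats with amygdala stimulation (rats 6 to 10) received current through the electrode to evoke status epilepticus, a prolonged seizure. The seizure was then stopped with diazepam. Tissue was taken 3 months later from the left hippocampus, from tissue holding CA3 and dentate gyrus (labelled dorsal hippocampus), with 1 library per animal. The groups were matched in age, and the age itself was not stated. According to the methods of the study, spontaneous seizures were seen in every stimulated animal. The methods list 4 stimulated animals for sequencing of mRNA, the labels 5, so all labelled rats were used and each was also left out in turn.

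Interneurons are the local inhibitory neurons of the hippocampus. They make the transmitter GABA from glutamate with the decarboxylases GAD67 (Gad1) and GAD65 (Gad2), and load it into vesicles with the transporter VGAT (Slc32a1). Their classes are told apart by calcium-binding proteins, peptides and enzymes, and many of them descend from the medial ganglionic eminence, where the transcription factor Lhx6 guides their development. Loss of some hilar interneurons, and altered expression of their markers in the cells that survive, are well-known features of temporal lobe epilepsy. Several of these genes are also used by other cells of the tissue. Calbindin (Calb1) is abundant in dentate granule cells and in part of the CA1 pyramidal cells, and reelin (Reln) and calretinin (Calb2) are also made by Cajal-Retzius cells. Granule cells hold some Gad1, which is known to increase in them after seizures.

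Library depth lay between 13552309 and 24086059 aligned reads per rat. Records of ribosomal RNA took 1.817 to 12.22% of them. Values are given as CPM, the reads of a gene relative to the size of its library after trimmed mean normalization (TMM). CPM does not correct for transcript length, so levels are compared between rats and not between genes. Lists of marker genes placed the tissue. CA3 pyramidal markers such as Cpne4 (196 to 335 CPM) and Grik4 (138 to 167 CPM) and the dentate granule marker C1ql2 (44.8 to 207 CPM) were counted in every rat. The CA1 marker Fibcd1 was counted as well, at 28.4 to 171 CPM, although the dissected tissue is described as CA3 and dentate gyrus. Immediate early genes, transcribed within minutes of neuronal activity, set some stimulated rats apart. Fos was counted at 106, 50.3 and 61.7 CPM in rats 7, 9 and 10 and at 5.61 and 5.24 CPM in rats 6 and 8, beside 3.26 to 5.32 CPM in sham rats.

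It was asked whether the interneuron genes differed between stimulated and sham rats. No gene of the 10 passed the test of the difference between the groups. An adjusted p-value under 0.05 was obtained for 0 of 10 genes with edgeR's quasi-likelihood test, as for 0% of the 22447 features tested with it. It was also obtained for 0 of 10 with DESeq2, limma-voom and edgeR's likelihood ratio test. For these other tools the share of all features at this threshold is not given. At an unadjusted p-value of 0.05, 0 of 10 genes passed with each of these tools. Of all features, 9.86% passed with the quasi-likelihood test (6.70% higher and 3.16% lower in stimulated rats). With limma-voom 9.06% passed (4.17% lower), and for DESeq2 and the likelihood ratio test the share is not given. The groups overlapped for each of the 10 genes, where 1.29% of all features had groups that did not. The mean difference was below 0 for 8 of the 10 genes, and for 47.8% of all features. The median log2 fold change of stimulated over sham was -0.18 over the 10 genes and 0.012 over all features. In bulk tissue, the number of interneurons and the RNA per interneuron cannot be told apart.

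**Figure D1:**
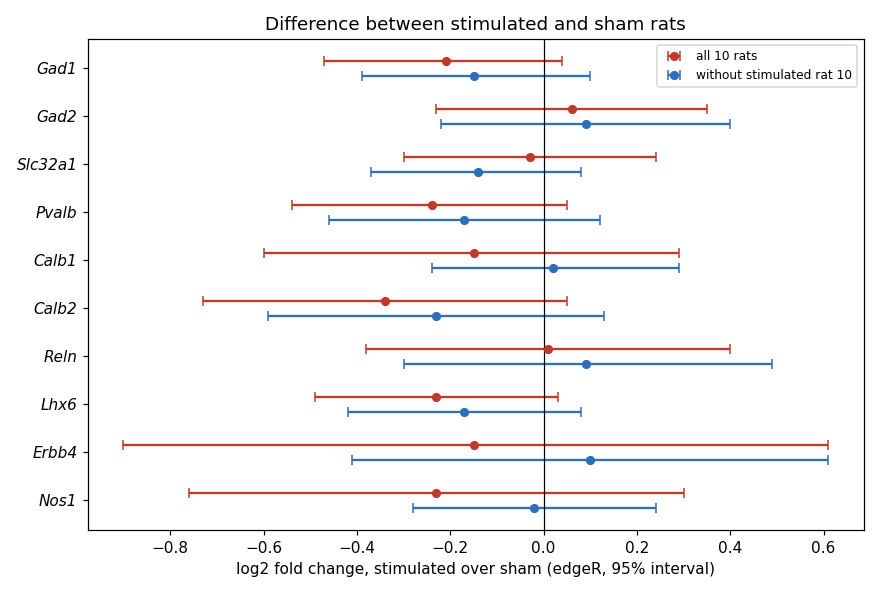
Log2 fold change of each gene, stimulated over sham, with its 95% interval from edgeR's quasi-likelihood fit, for all 10 rats (red) and without stimulated rat 10 (blue), on a horizontal log2 axis. Every interval spans 0 in both fits, and the intervals of Calb1, Erbb4 and Nos1 are narrower without rat 10.

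None of the 3 genes that make and package GABA passed the test, and of the 3 Gad1 had the lowest mean relative to sham. Gad1 (NM_017007), the main source of basal GABA, was counted at 149, 143, 180.3, 179 and 172 CPM in sham rats 1 to 5 and at 169, 120.5, 144, 161 and 114 CPM in stimulated rats 6 to 10. Stimulated rats 7 and 10 lay below all sham rats, and the other three lay within the sham range. Gad1 averaged 165 ± 17.2 CPM without and 142 ± 24.2 CPM after stimulation (SD, n = 5 each). Its log2 fold change was -0.21 (SE 0.118, edgeR adjusted p = 0.563), and its 95% interval ran from 0.723-fold to 1.03-fold of the sham level.

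Gad2 (NM_012563), the enzyme found mainly at nerve endings, was counted at 28.8, 26, 36.2, 32.7 and 27.3 CPM in sham rats 1 to 5 and at 35.7, 34.9, 23.2, 34.5 and 28.7 CPM in stimulated rats 6 to 10. Rats 6, 7 and 9 lay in the upper part of the sham range and rat 8 lay below it. For Gad2 the log2 fold change was 0.06 (SE 0.135, edgeR adjusted p = 0.918), with a 95% interval from 0.851-fold to 1.27-fold. It became -0.01 without rat 6.

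Slc32a1 (NM_031782), the vesicular transporter of GABA and glycine, was counted at 52.9, 59.2, 61.3, 62.2 and 53.3 CPM in sham rats 1 to 5 and at 53.6, 45.7, 49.2, 60.7 and 74.3 CPM in stimulated rats 6 to 10. Rat 10 was above all sham rats and rats 7 and 8 were below all of them. For Slc32a1 the log2 fold change was -0.03 (SE 0.125, edgeR adjusted p = 0.959), with a 95% interval from 0.814-fold to 1.18-fold. Its sign turned when rat 7 (0.03) or rat 8 (0.0037) was left out. The intervals of the 3 genes did not reach below 0.723-fold, and rat 10 stood below the sham range for Gad1 and above it for Slc32a1.

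**Figure D2:**
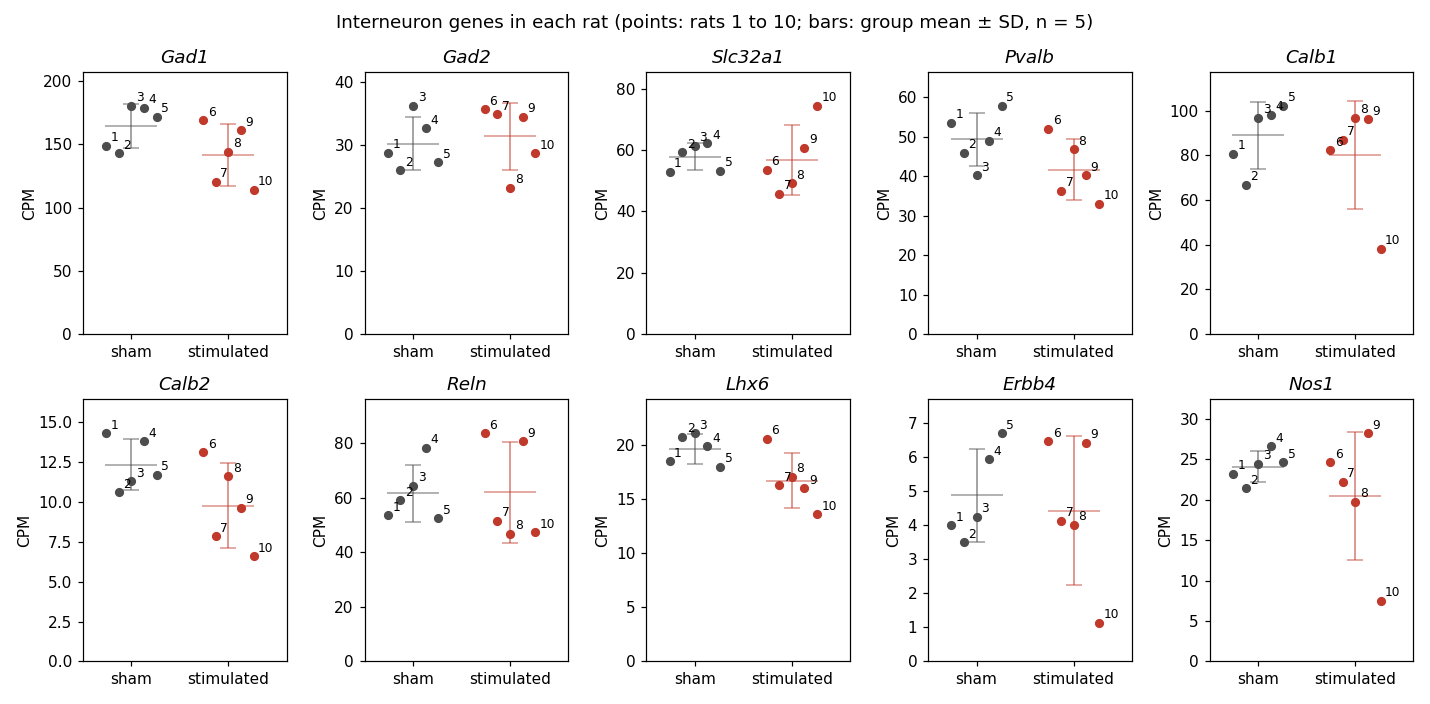
Level of each gene in CPM (vertical axis, from 0) in the 5 sham (grey) and 5 stimulated rats (red), with the rat number beside each point and bars for the group mean ± SD. The groups overlap in each panel, and rat 10 lies far below the other rats for Calb1 (38.2 CPM), Erbb4 (1.14 CPM) and Nos1 (7.53 CPM).

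Lhx6 and Pvalb mark interneurons of the medial ganglionic eminence lineage. Lhx6 (NM_001107837), a transcription factor kept on in the mature cells, was counted at 18.5, 20.8, 21.1, 19.9 and 18 CPM in sham rats 1 to 5 and at 20.6, 16.3, 17.1, 16 and 13.6 CPM in stimulated rats 6 to 10. Rats 7, 8, 9 and 10 lay below all sham rats and rat 6 lay near the top of their range, so the groups overlapped through this rat alone. Lhx6 averaged 19.7 ± 1.39 CPM without and 16.7 ± 2.54 CPM after stimulation (SD, n = 5 each), a log2 fold change of -0.23 (SE 0.12, 95% interval 0.712-fold to 1.02-fold, edgeR adjusted p = 0.547).

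Pvalb (NM_022499), parvalbumin, is the calcium buffer of fast-spiking basket and axo-axonic cells. It was counted at 53.6, 46, 40.3, 49 and 57.8 CPM in sham rats 1 to 5 and at 52.1, 36.3, 46.9, 40.3 and 33 CPM in stimulated rats 6 to 10. Rats 7 and 10 lay below all sham rats, and sham rat 3 and stimulated rat 9 had equal values to the digits given. For Pvalb the log2 fold change was -0.24 (SE 0.136, 95% interval 0.69-fold to 1.03-fold, edgeR adjusted p = 0.567).

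Calb2 (NM_053988), calretinin, marks interneurons that contact other interneurons, and also immature granule cells. It was counted at 14.3, 10.6, 11.3, 13.8 and 11.7 CPM in sham rats 1 to 5 and at 13.1, 7.85, 11.6, 9.64 and 6.6 CPM in stimulated rats 6 to 10. Rats 7, 9 and 10 lay below all sham rats and rats 6 and 8 lay within their range. Calb2 averaged 12.3 ± 1.62 CPM without and 9.76 ± 2.65 CPM after stimulation (SD, n = 5 each). Its log2 fold change, -0.34 (SE 0.182, 95% interval 0.603-fold to 1.03-fold, edgeR adjusted p = 0.553), was the most negative of the 10. Rats 7, 9 and 10 were also the rats with the highest Fos. Its part in the level of Calb2 was not tested.

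Stimulated rat 6 had values above the sham mean for Gad1, Pvalb, Calb2 and Lhx6. Without it, these 4 of the 10 genes had an unadjusted p-value under 0.05, all lower in stimulated rats, where 5.73% of the features in that fit were lower at the same threshold. The log2 fold changes were then -0.30 for Gad1, -0.35 for Pvalb, -0.48 for Calb2 and -0.33 for Lhx6. The lowest adjusted p-value was 0.224, for Lhx6 (edgeR). Of all features in that fit 14.0% passed in either direction. The count was 1 of 10 without sham rat 3 (Pvalb, lower, where 8.28% of features passed and 2.69% were lower), 1 of 10 without stimulated rat 8 (Calb2, lower, where 13.5% passed and 5.53% were lower) and 0 of 10 without rat 10 (9.20% passed and 3.00% were lower).

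Reln (NM_080394), a secreted matrix protein that positions neurons in development and is made in the adult by interneurons, was counted at 53.5, 59, 64.4, 78.4 and 52.5 CPM in sham rats 1 to 5 and at 83.6, 51.6, 46.8, 80.7 and 47.3 CPM in stimulated rats 6 to 10. The stimulated rats fell on both sides of the sham range, with rats 6 and 9 above it and rats 7, 8 and 10 below it. The means were nearly equal, 61.6 ± 10.5 CPM without and 62 ± 18.5 CPM after stimulation (SD, n = 5 each), a log2 fold change of 0.01 (SE 0.181, 95% interval 0.77-fold to 1.32-fold, edgeR adjusted p = 0.99). Markers of Cajal-Retzius cells, another source of reelin, were low. Tp73 was counted at 1.9 to 4.15 CPM, and Lhx1 and Lhx5 had too few reads to be tested.

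For Calb1, Erbb4 and Nos1, rat 10 lay far below the others, and without it the mean difference was near 0 or turned. Calb1 (NM_031984), the calcium buffer calbindin, was counted at 80.6, 66.8, 96.8, 98.2 and 102 CPM in sham rats 1 to 5 and at 82.3, 86.9, 96.7, 96.1 and 38.2 CPM in stimulated rats 6 to 10. Rat 10 lay below all other rats and the other 4 stimulated rats lay within the sham range. For Calb1 the log2 fold change was -0.15 (SE 0.207, edgeR adjusted p = 0.843) with all rats and 0.02 (SE 0.124) without rat 10.

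Erbb4 (NM_021687), the neuregulin receptor of interneurons, was counted at 4.01, 3.51, 4.25, 5.95 and 6.71 CPM in sham rats 1 to 5 and at 6.47, 4.13, 4.02, 6.43 and 1.14 CPM in stimulated rats 6 to 10. The value of rat 10 rested on 22 reads, with an exact Poisson 95% interval of 0.711 to 1.72 CPM, and the next lowest value, in sham rat 2, had an interval of 2.57 to 4.68 CPM. For Erbb4 the log2 fold change was -0.15 (SE 0.351, 95% interval 0.536-fold to 1.52-fold, edgeR adjusted p = 0.921), the least precise of the 10, and turned to 0.10 (SE 0.236) without rat 10.

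Nos1 (NM_052799), neuronal nitric oxide synthase, is strong in neurogliaform and ivy cells. It was counted at 23.2, 21.4, 24.4, 26.6 and 24.6 CPM in sham rats 1 to 5 and at 24.6, 22.2, 19.7, 28.2 and 7.53 CPM in stimulated rats 6 to 10. Rat 10 (146 reads, exact Poisson 95% interval 6.36 to 8.86 CPM) again lay below every other rat, rat 8 lay slightly below the sham range and rat 9 above it. For Nos1 the log2 fold change was -0.23 (SE 0.247, 95% interval 0.588-fold to 1.23-fold, edgeR adjusted p = 0.784), and -0.02 (SE 0.12) without rat 10.

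Rat 10 had the lowest value of all 10 rats for 7 of the 10 genes, namely Gad1, Pvalb, Calb1, Calb2, Lhx6, Erbb4 and Nos1. Over the 14718 features at least as high as the lowest of the 10 genes (a mean of 4.66 CPM), rat 10 was lowest for 13.2% and highest for 13.3%. For Slc32a1 it was the highest rat. Genes of other cells moved in this rat as well. The summed level of 4 CA1 markers was 61.7 CPM in rat 10 and 129 to 209 CPM in sham rats. Among them Fibcd1 was counted at 28.4 CPM beside 85 to 171 CPM in the other rats. Pou3f1, named after its values were seen, was also lowest in rat 10, at 1.96 CPM (4.54 to 9.64 CPM in sham rats). Wfs1 was counted at 21.4 CPM in rat 10, within the sham range of 20.9 to 42.3 CPM. The summed level of 7 endothelial markers was highest in rat 10, at 319 CPM, beside 165 to 184 CPM in sham rats. Dentate granule markers (235 CPM) and CA3 markers (458 CPM) in rat 10 summed to values within the sham ranges of 229 to 289 CPM and 455 to 522 CPM. C1ql2 made up 142 CPM of the dentate sum in rat 10. Markers of immature granule cells summed to 41.5 CPM in rat 10, the lowest of all rats, beside 53.1 to 59.8 CPM in sham rats. Among them Neurod1 was counted at 14.3 CPM in rat 10 and 24.8 to 30.9 CPM in sham rats. Neurod1 was lower still in stimulated rats 7 (8.31 CPM) and 9 (9.54 CPM), so its low level was not particular to rat 10. Single CA3 markers did not all lie in their ranges, since in rat 10 Cpne4 was counted at 196 CPM (236 to 289 CPM in sham rats) and Bok, named after its values were seen, at 106 CPM (58.8 to 71.6 CPM in sham rats). The summed level of markers of neurons in general was lowest in rat 10, at 3779 CPM beside 4002 to 4376 CPM in sham rats. Its members did not all move this way. In rat 10 Eno2 was the highest of all rats, at 784 CPM (605 to 736 CPM in sham rats), and Nefl was counted at 859 CPM (734 to 920.1 CPM in sham rats). Snap25, Syt1 and Stmn2, named after their values were seen, were lowest in rat 10. Rat 10 also had the largest share of reads that did not align, 45.14% beside 32.82 to 37.09% in sham rats. The part of these shifts and of alignment in the values of the interneuron genes was not tested.

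**Figure D3:**
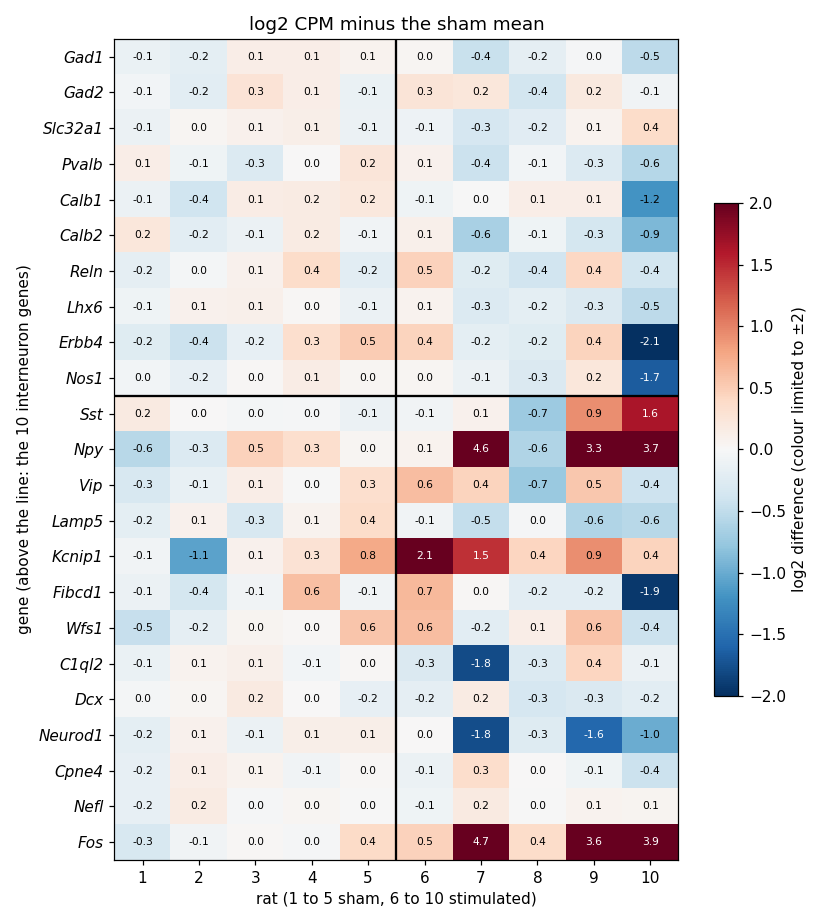
Log2 CPM of each gene minus its mean in sham rats, for the 10 interneuron genes (above the line) and other interneuron, region and activity genes (below), in rats 1 to 5 (sham) and 6 to 10 (stimulated). Rat 10 is low for Calb1 (-1.2), Erbb4 (-2.1), Nos1 (-1.7) and Fibcd1 (-1.9) and high for Sst (1.6) and Npy (3.7).

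The spread between rats was wider after stimulation. The SD of log2 CPM was higher in stimulated than in sham rats for 10 of 10 genes, and for 69.5% of all features. The median SD over the 10 genes was 0.191 in sham and 0.337 in stimulated rats, beside 0.206 and 0.291 over all features. Without rat 10 the median over the 10 genes in stimulated rats was 0.224. The SD in stimulated rats was then below that in sham rats for Calb1 (0.114 and 0.257) and Erbb4 (0.375 and 0.388). For the other genes it stayed above. The share of all features without rat 10 is not given. Nos1 had one of the smallest spreads in sham rats (SD 0.116) and the second widest in stimulated rats (SD 0.751), which became 0.217 without rat 10. Lhx6 varied least in both groups (SD 0.102 in sham and 0.214 in stimulated rats).

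Ratios between genes within a rat do not depend on the scaling of the libraries and are given without a test. Gad1, Gad2 and Slc32a1 are carried by all GABAergic neurons, and their mean log2 CPM served as the reference. The log2 ratio of Nos1 to this reference was nearly constant, from -1.59 to -1.30, in 9 rats and was -3.03 in rat 10. That of Erbb4 lay between -4.09 and -3.21 in 9 rats and was -5.66 in rat 10. The ratio of Pvalb varied widely within sham rats, from -0.87 to -0.13, and 4 of the 5 stimulated rats lay in this range. The ratio of Lhx6 was -2.12 and -2.19 in rats 9 and 10 and -1.84 to -1.53 in the other rats.

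The reference genes themselves did not keep one proportion. The log2 ratio of Gad2 to Gad1 averaged -2.45 ± 0.128 without and -2.17 ± 0.316 after stimulation (SD, n = 5 each). Rats 6, 7, 9 and 10 (-2.24, -1.79, -2.22 and -1.99) lay above all sham rats (-2.65 to -2.31), and rat 8 (-2.63) lay at their lower end. The log2 ratio of Slc32a1 to Gad1 was -0.62 in rat 10 and -1.69 to -1.27 in the other 9 rats. Rat 10 thus had more Slc32a1 and less Gad1 than any sham rat.

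**Figure D4:**
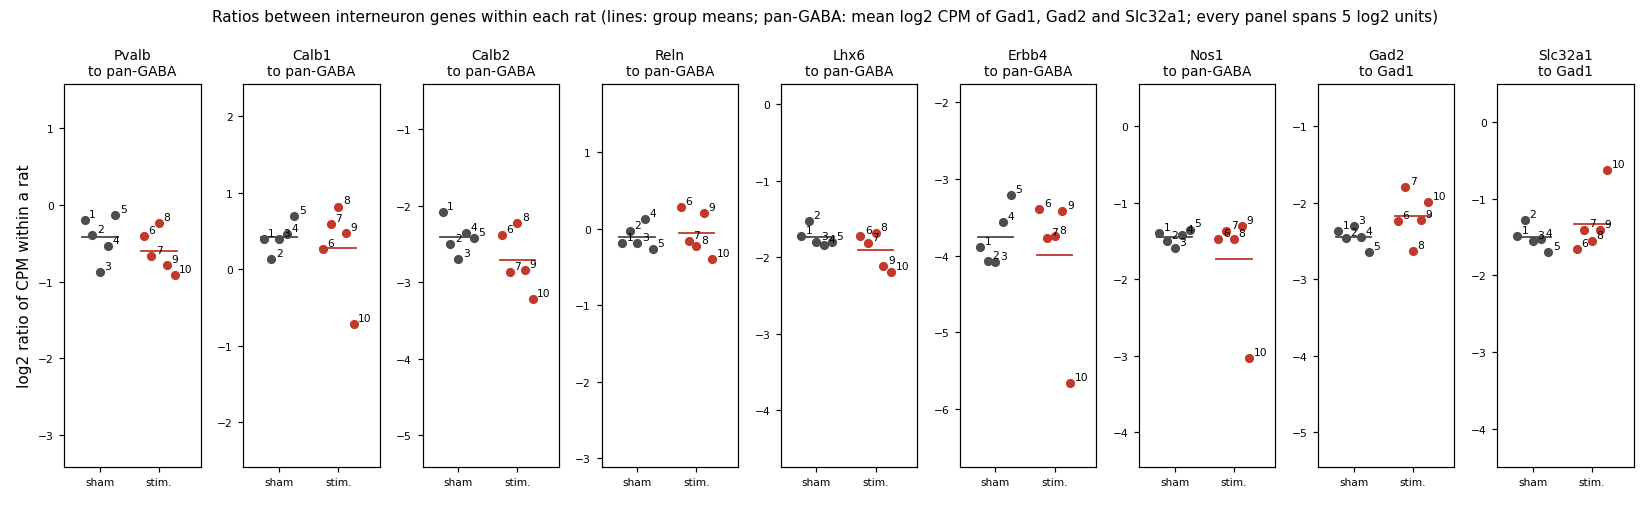
Log2 ratio of CPM within each rat (vertical axes, each spanning the same range), of 7 genes to the mean of Gad1, Gad2 and Slc32a1 and of Gad2 and Slc32a1 to Gad1, with rat numbers and lines for the group means. Rat 10 is apart for Erbb4 (-5.66), Nos1 (-3.03) and Slc32a1 to Gad1 (-0.62).

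Related genes were examined by role, with 75 genes in 7 lists, of which 70 were matched to a row and 68 were tested. An adjusted p-value under 0.05 was obtained for 0 of 68 with edgeR's quasi-likelihood test, DESeq2 and limma-voom, and for 1 of 68 (Npy) with edgeR's likelihood ratio test. The share of all features at this threshold was 0% with the quasi-likelihood test and is not given for the other tools. At an unadjusted p-value of 0.05, 7 of 68 passed (10.3%), 5 higher and 2 lower in stimulated rats, beside 9.86% of all features. The count was 4 without sham rat 5 (8.12% of all features) and 4 without stimulated rat 7 (7.37%). It was 15 without rat 6 (14.0%), 14 without rat 8 (13.5%) and 11 with limma-voom (9.06%). Those higher numbered 2 without rat 7 (4.74% of all features), 3 without sham rat 5 (4.98%), 3 without rat 10 (6.20%) and 9 without rat 8 (7.99%). Those lower numbered 8 without rat 6 (5.73%), 5 without rat 8 (5.53%), 6 with limma-voom (4.17%), 1 without sham rat 4 (2.39%) and 1 without sham rat 5 (3.13%). The median log2 fold change over the 68 genes was -0.02.

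Among the other subtype genes, 2 of 25 were higher and 1 was lower at an unadjusted p-value under 0.05, beside 6.70% and 3.16% of all features. Npy (NM_012614), neuropeptide Y, was counted at 5.53, 6.72, 11.2, 10.3 and 8.42 CPM in sham rats 1 to 5 and at 8.6, 192, 5.36, 80.2 and 107 CPM in stimulated rats 6 to 10. It was high in the 3 rats with high Fos and within or below the sham range in rats 6 and 8, so the groups overlapped (log2 fold change 3.22, SE 0.748, edgeR adjusted p = 0.376). Neuropeptide Y is a peptide of hilar interneurons that granule cells are also known to make after seizures.

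Sst (NM_012659), somatostatin, a peptide of hilar and oriens interneurons, was counted at 47.5, 42, 40.8, 41.4 and 38.6 CPM in sham rats 1 to 5 and at 39.8, 44.4, 25.4, 79.6 and 129.8 CPM in stimulated rats 6 to 10. Rats 9 and 10 lay above all sham rats and rat 8 lay below them (log2 fold change 0.60, SE 0.328, edgeR adjusted p = 0.56). Without rat 10 the log2 fold change of Sst was 0.17 (SE 0.239). Vip (NM_053991), vasoactive intestinal peptide, was counted at 4.13 to 6.5 CPM in sham and at 3.07 to 7.92 CPM in stimulated rats (log2 fold change 0.17, SE 0.252, edgeR adjusted p = 0.858). In rat 10, therefore, Sst and Npy were high while Nos1, Erbb4 and Calb1 were at their lowest.

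Kcnip1 (NM_001261387), a partner of Kv4 potassium channels, was counted at 1.22, 0.611, 1.36, 1.57 and 2.18 CPM in sham rats 1 to 5 and at 5.52, 3.53, 1.72, 2.45 and 1.75 CPM in stimulated rats 6 to 10. It was highest in rats 6 and 7 (log2 fold change 1.08, SE 0.368, edgeR adjusted p = 0.409). This row is one of 4 transcript records of the gene, and how reads shared by them were counted was not stated. Lamp5 (NM_001014183), a marker of neurogliaform cells and of some other neurons, was counted at 50.02 to 80.3 CPM in sham and 41.1 to 61.7 CPM in stimulated rats, of which rats 7, 9 and 10 lay below all sham rats (log2 fold change -0.34, SE 0.151, edgeR adjusted p = 0.474).

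Among 9 genes of GABA supply, uptake and breakdown, Glul (NM_017073), the glutamine synthetase of astrocytes, was higher at an unadjusted p-value under 0.05. It averaged 1380 ± 125 CPM without and 1672 ± 241 CPM after stimulation (SD, n = 5 each, log2 fold change 0.28, SE 0.1, edgeR adjusted p = 0.418). Of 7 partners of nitric oxide signalling, 2 were higher at this threshold, beside 6.70% of all features. Nos1ap (NM_138922), an adaptor that binds the synthase, was counted at 46.6 to 56.8 CPM in sham and 49.1 to 77.5 CPM in stimulated rats (log2 fold change 0.30, SE 0.123, edgeR adjusted p = 0.449). Pde5a (NM_133584), which breaks down cyclic GMP, was counted at 2.56 to 5.01 CPM in sham and 3.58 to 6.69 CPM in stimulated rats (log2 fold change 0.57, SE 0.222, edgeR adjusted p = 0.431). Of the 6 genes named here for passing the unadjusted threshold, Npy passed it with each rat left out in turn and the others did not. Kcnip1 did not pass without rat 6 (log2 fold change 0.72), and Glul did not without rat 7 (0.19) or rat 8 (0.23). Pde5a did not pass without rat 1, 5, 7 or 10 (0.44 to 0.54), and Nos1ap did not without rat 4, 5, 7 or 10 (0.22 to 0.29). Lamp5 did not pass without rat 2, 4, 5, 7, 9 or 10 (-0.33 to -0.25). In rat 10, where Nos1 was lowest, Nos1ap was counted at 75.9 CPM, second only to rat 7. No gene passed the unadjusted threshold among 3 reelin receptor and adaptor genes, 4 neuregulin and Erbb genes and 6 scaffold genes of the inhibitory synapse.

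Markers of neurons from regions outside the hippocampus were also counted. Thalamic markers summed to 32 to 50.9 CPM in the sham group and 28.9 to 50.9 CPM after stimulation. Of these markers 1 of 4 was higher at an unadjusted p-value under 0.05, beside 6.70% of all features. Markers of striatal and central amygdala projection neurons, which are GABAergic, summed to 122 to 151 CPM and to 65.2 to 155 CPM, with the lowest value in rat 7, and 0 of 6 passed. Most of this sum was Ppp1r1b, which was counted at 43.8 CPM in rat 7. This rat was also lowest for C1ql2, whereas its Calb1 was within the sham range.

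Of the hippocampal lists, 1 of 6 dentate granule markers was higher, 1 of 4 markers of immature granule cells was higher (Sox11, named after its values were seen, log2 fold change 3.08) and 1 was lower (Neurod1, -0.76) at this threshold, and none of 3 CA3, 4 CA1, 2 Cajal-Retzius and 8 general neuronal markers passed. Of the glial lists, 3 of 7 astrocyte, 2 of 8 microglial and 0 of 7 oligodendrocyte markers were higher. Of 7 endothelial markers 4 were higher, of 6 choroid plexus markers 1 was higher, and of the immediate early genes 10 of 10 were higher. Of all features, 6.70% were higher and 3.16% lower at this threshold. Gfap, the intermediate filament of astrocytes, was counted at 6469 and 5396 CPM in rats 7 and 10, which had the lowest Gad1, and at 1326 to 2079 CPM in the others. Astrocyte markers did not all follow Gfap. Aldoc was lowest in rat 7, at 742 CPM, and was counted at 1185 CPM in rat 10, beside 999 to 1306 CPM in sham rats. The part of glial or vascular RNA in the levels of the interneuron genes was not tested.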

How the data were processed

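The deposited values were unnormalized counts of reads for each transcript record in each rat. The authors aligned single reads of 36 cycles to rat build rn4 with BWA and counted them with a custom script. Their methods name an Ensembl annotation, whereas the rows carry RefSeq identifiers. Use of strand and of reads shared between records was not stated, so values of paralogs (Gad1 and Gad2, Calb1 and Calb2) and of genes with antisense partners are uncertain to that extent.

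Rows were named from the RefSeq gene table of assembly GRCr8 (17371 of 32041 features), taking the row with the highest mean count per symbol. The row of unaligned reads (32.01 to 45.14% of reads) was set aside. Stimulated rats 8, 9 and 10 had 41.4, 42.93 and 45.14% of reads unaligned, above all sham rats (32.82 to 37.09%). Stimulated rats 6 and 7 had 35.55 and 32.01%. The part of alignment in the differences between rats was not tested. Following the study, features with a summed count below the 30th percentile (46 counts) were left out. The remaining 22447 were compared with edgeR 4.0.16 (quasi-likelihood, TMM, R 4.3.3) and Benjamini-Hochberg adjustment over all of them. Log2 CPM used a prior count of 2. Poisson intervals cover counting error only. The procedure was tested on simulated data. Alternatives used limma 3.58.1 and DESeq2 1.42.0, other scalings and filters, and the omission of each rat. Of related genes, those at an unadjusted p-value under 0.05 (at most 12) and Sst, Npy and Vip are named, and of marker lists the 2 most abundant genes and Fos. A gene that this rule names is not reported here. The genes and lists were chosen with earlier results of these data known. Replicates are separate rats.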

Additional observations from a re-analysis of the deposited data

Results flagged for a closer look

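For groups of 5 rats, the gap between the most extreme rat and its neighbour was divided by the range of the group and compared with Dixon's critical value of 0.71. Of 56 groups of values examined, 4 exceeded it, where chance gives about 2.8. All 4 concerned stimulated rat 10, and they share its library and in part its values. The gap took 0.753 of the range for Calb1, at 38.2 CPM. It took 0.832 for the log2 ratio of Erbb4 to the mean of Gad1, Gad2 and Slc32a1, at -5.66, and 0.897 for that of Nos1, at -3.03. For the log2 ratio of Slc32a1 to Gad1, at -0.62, it took 0.748, with rat 10 as the highest.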

How the results depend on the processing

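No gene of the 10 reached an adjusted p-value under 0.05 under any alternative run, and 198 of 210 refitted log2 fold changes kept their sign. Reln turned to -0.02 with limma-voom and to -5.1e-05 without the filter. When each rat was left out in turn, Reln ranged from -0.13 to 0.11, Gad2 from -0.01 to 0.13, Slc32a1 from -0.14 to 0.03, Calb1 from -0.25 to 0.02 and Erbb4 from -0.34 to 0.10. Genes of the 10 at an unadjusted p-value under 0.05 then numbered from 0 to 4. Related genes at that threshold numbered from 4 to 15 (2 to 9 higher, 1 to 8 lower), and 11 with limma-voom (6 lower). With library size alone 1 was lower. The likelihood ratio test gave 1 related gene at an adjusted p-value under 0.05. For library size alone and for the likelihood ratio test the share of all features is not given, so these counts have no background beside them. The cause of these shifts was not tested. The fit with adjusted deviances was added after the data were seen and changed no sign. No paired analysis was possible because the rats carry 10 different numbers and sham and stimulated rats share none. Depth limits Erbb4 most, with a mean of 94 reads per rat.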
